A study of Mus musculus with 38 samples.

Results

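Syt15, Spon2, Slc5a12 and Wdr45 were chosen by their values in lung, where a probe of each gene had a lower ratio at higher doses of dibenz(a,h)anthracene (DBahA). All probes of these genes were taken by the transcript accession in the array files, which gave 7 of the 55681 probes on the array and 4 of the 20018 genes with a symbol. Syt15, Slc5a12 and Wdr45 each had 2 probes, and Spon2 had 1. The lung values of these probes are given as a description with no test, since they selected the genes, and the forestomach values of the same mice were tested.

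The mice were male MutaMouse aged about 10 weeks, a transgenic strain that carries a bacterial reporter gene for mutation assays in every group, controls included. DBahA, a polycyclic aromatic hydrocarbon, was given in olive oil by oral gavage on each of 28 days, and tissues were collected 72 h after the final dose. D0 received olive oil only, and D1, D2 and D3 received 6.25, 12.5 and 25 mg of DBahA per kg of body weight per day. Lung was measured in 5 D0, 5 D1, 4 D2 and 5 D3 mice. Forestomach came from 5 D0, 5 D1, 4 D2 and 4 D3 mice, and the D3 mouse numbered 18 had 2 forestomach arrays, which were averaged. RNA came from random tissue sections, was labelled with Cy5 and was hybridised against a reference RNA pooled from 11 mouse cell lines and labelled with Cy3. A value is log2(Cy5/Cy3) after loess normalization, so 0 means a signal equal to that of the reference.

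The 4 genes encode proteins of unrelated function. Syt15 is a member of the synaptotagmins, membrane trafficking proteins with paired C2 domains, of which the best known trigger calcium-dependent vesicle fusion. Spon2 (mindin) is a secreted matrix protein with a thrombospondin type 1 repeat that binds integrins and bacterial surface molecules in innate immunity. Slc5a12 (SMCT2) is a sodium-coupled transporter of lactate and other monocarboxylates, best known from the kidney tubule. Wdr45 (WIPI4) is a WD-repeat protein that binds phosphoinositides and takes part in the formation of autophagosomes. In GRCm38.p6, Syt15 lies on chromosome 14 from 34219956 to 34230421, Spon2 on chromosome 5 from 33213518 to 33218254, Slc5a12 on chromosome 2 from 110597299 to 110649345 and Wdr45 on chromosome X from 7721987 to 7728201.

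RefSeq promoter sequences, from 250 bases before to 50 after an annotated start, were at hand for Syt15 and Wdr45 and are shown because their leading probes had lower lung ratios while their forestomach ratios did not follow. The Syt15 window is chr14:34219796-34220095 and the Wdr45 window is chrX:7722677-7722976, both on the plus strand of GRCm38.p6. The Wdr45 window lies wholly inside the gene span given above, so its annotated start is downstream of the first base of the gene. Capitals mark GCGTG on either strand, the core sequence bound by the aryl hydrocarbon receptor.
Syt15: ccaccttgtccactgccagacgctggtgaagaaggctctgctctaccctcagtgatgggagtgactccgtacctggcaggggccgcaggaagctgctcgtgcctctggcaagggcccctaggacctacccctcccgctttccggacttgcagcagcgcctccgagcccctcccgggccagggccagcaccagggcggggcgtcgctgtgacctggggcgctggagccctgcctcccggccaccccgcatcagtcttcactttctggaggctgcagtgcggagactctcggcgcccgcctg
Wdr45: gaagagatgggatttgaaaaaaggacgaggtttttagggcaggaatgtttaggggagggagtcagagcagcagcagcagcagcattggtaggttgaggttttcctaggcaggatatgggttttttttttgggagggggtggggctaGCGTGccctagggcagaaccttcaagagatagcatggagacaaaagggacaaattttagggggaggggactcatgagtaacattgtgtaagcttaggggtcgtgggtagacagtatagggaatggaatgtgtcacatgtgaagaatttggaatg
The Wdr45 window held 1 match to GCGTG and the Syt15 window held none, whereas 32.4% of 32851 promoter windows of this length held at least 1. Neither window held CACGTG, the E-box, which 7.15% of all windows contained. GGGCGG, the GC box, occurred once in the Syt15 window and was found in 35.7% of all windows. The GC content was 69.0% in the Syt15 window and 48.0% in the Wdr45 window, against a median of 52.7%. A match of these letters is a description and not evidence of binding.

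Labelled tissues were checked against marker genes. All 6 lung epithelium markers (surfactant genes, Scgb1a1 and Ager) were well above background on every lung array, and all 6 squamous epithelium markers were so on every forestomach array. Arrays were scanned on 3 days and came from 5 slides, and slide 1 held no D0 mouse. The heart muscle score (mean log2 ratio of 6 genes, less the D0 mean) ran from -0.75 to 0.64 in D0 lung and from -0.95 to 1.96 in D3 lung, with 3 of 6 genes well above background on all D3 arrays. The glandular stomach score (8 of 9 markers on the array) ran from -3.27 to 2.73 in D0 and from -2.89 to 2.34 in D3 forestomach. Both D3 extremes were the arrays labelled mouse 18, the first at -2.89 and the second at 2.34. The first array was on slide 4, as was the lung of mouse 18, and the second was on slide 5, as was the lung of mouse 20. The labels give both the number 18 and no forestomach the number 20, so whether they came from 1 animal is not settled, and forestomach results at D3 are also given with the arrays taken singly, an alternative chosen after seeing the data. Between 30.1% and 63.8% of probes were well above background in Cy5 on an array.

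Calls required an FDR P of at most 0.05 over all probes together with a 1.5-fold change or more, up or down. In lung 0.14% of all probes passed at D1, 0.264% at D2 and 0.639% at D3, while the called probes with lower ratios were 0.0018%, 0.0108% and 0.0844% of all probes. Of the 7 member probes none (0) were called at D1, 1 at D2, 3 at D3. The rule for choosing the genes used these same contrasts, so nothing is read from the counts. The 3 probes called at D3 were 1 each of Syt15, Spon2 and Slc5a12, and no Wdr45 probe was called. In 5 of the 7 probes every D3 lung lay below every D0 lung, a pattern seen in 1.06% of 55622 probes. In these whole-tissue extracts, fewer cells that express a gene and less RNA per cell cannot be told apart.

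**Figure D1:**
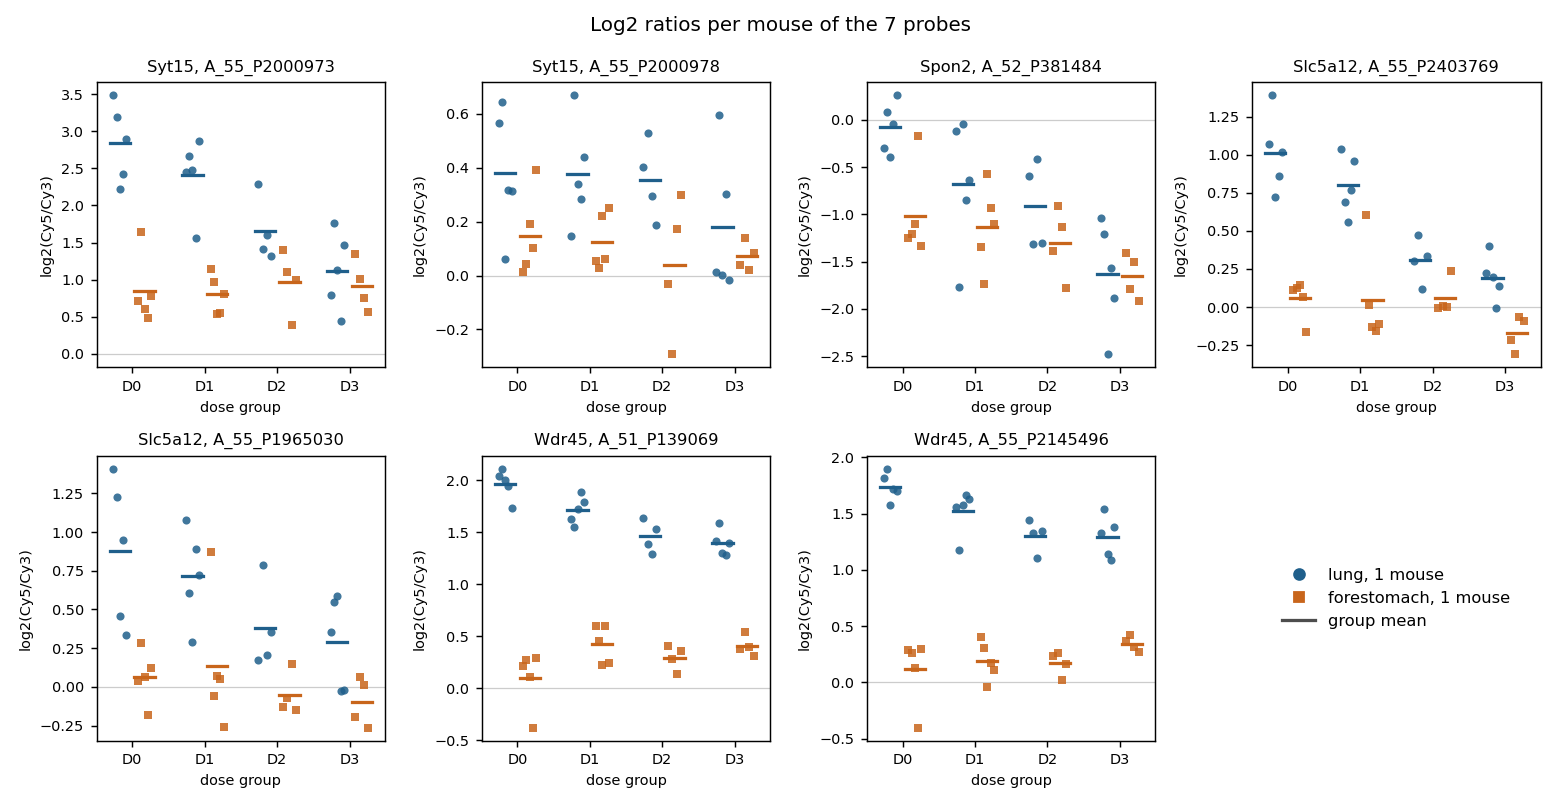
Log2(Cy5/Cy3) of each mouse for the 7 probes, by dose group on the x axis, with lung as circles, forestomach as squares and the group mean as a line. Syt15 A_55_P2000973 declined from a D0 mean of 2.84 to a D3 mean of 1.12 in lung and stayed between group means of 0.80 and 0.97 in forestomach.

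The Syt15 probe A_55_P2000973, designed against transcript NM_181529, had the lowest fitted lung difference at D3 of the 7 probes after loess normalization, though not with the Feature Extraction log ratio. Its log2 ratio was 3.48, 3.19, 2.22, 2.42 and 2.90 in the lungs of D0 mice 1 to 5. The D1 mice 6 to 10 had 2.45, 2.67, 2.47, 1.56 and 2.87. In D2 mice 11, 12, 13 and 15 it was 2.29, 1.41, 1.61 and 1.32, and in D3 mice 16 to 20 it was 0.79, 1.76, 1.13, 0.44 and 1.47. The ranges of D0 and D1 overlapped, 3 of 4 D2 lungs lay below all D0 lungs, and D3 did not overlap with D0. The group means were 2.84 ± 0.53 (SD, n = 5) at D0, 2.40 ± 0.50 (SD, n = 5) at D1, 1.66 ± 0.44 (SD, n = 4) at D2 and 1.12 ± 0.52 (SD, n = 5) at D3. The fitted difference from D0 was -0.44 ± 0.28 (SE) at D1, -1.18 ± 0.29 (SE) at D2 and -1.73 ± 0.28 (SE) at D3. The last of these is a 3.31-fold lower ratio, and 1 probe of the array lay lower at D3.

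The drop of Syt15 was carried by the Cy5 channel. From D0 to D3 the normalized lung signal of A_55_P2000973 changed by -1.65 (log2) and the reference signal by 0.08. The reference was close to background for this probe, being well above it in Cy3 on 9 of 19 lung arrays, so the ratio compares lung RNA with a dim reference. In Cy5 the probe was well above background on 18 of 19 lung arrays, the exception being the D3 mouse numbered 19. Within each of the 4 slides that held both groups, D3 lay below D0, with differences between -1.98 and -1.09. The D3 call was lost with the Feature Extraction log ratio (-1.15) and with centring of each array on its median in place of loess (-1.15).

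The second Syt15 probe, A_55_P2000978, is designed against another transcript accession, NM_176931. It was well above background in Cy5 on 2 of 19 lung arrays and on none of the 19 forestomach arrays. Its lung ratios ran from 0.06 to 0.65 at D0 and from -0.02 to 0.60 at D3, and these ranges overlapped. The measured lung difference was -0.20 ± 0.13 (SE) at D3, against -1.94 with the Feature Extraction log ratio, and neither was called. Since the probe was dim in all groups, it gives no level for NM_176931, and the lower Syt15 ratio in lung rests on 1 probe.

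In forestomach the Syt15 probe A_55_P2000973 was well above background on 17 of 19 arrays and did not follow the lung pattern. The ratio was 0.71, 1.64, 0.60, 0.48 and 0.78 in D0 mice 1 to 5. The D1 mice 6 to 10 had 1.15, 0.97, 0.54, 0.55 and 0.81. In D2 it was 1.41, 1.11, 0.39 and 1.00, and in D3 it was 1.34, 1.01, 0.75 and 0.56 with both arrays of mouse 18 averaged. All 4 groups overlapped. The fitted difference at D3 was 0.07 ± 0.24 (SE), with a 95% confidence interval from -0.43 to 0.57 and an FDR P of 1.00 in limma. At D1 and D2 the differences were -0.04 ± 0.22 and 0.13 ± 0.24 (SE), each with an FDR P of 1.00 in limma.

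Spon2 had a single probe, A_52_P381484 (NM_133903), which was well above background in both channels on all 38 arrays. Its lung ratio was -0.30, 0.08, -0.39, -0.05 and 0.26 in D0 mice 1 to 5. The D1 lungs of mice 6 to 10 had -0.12, -1.77, -0.04, -0.84 and -0.63. In D2 mice 11, 12, 13 and 15 it was -0.60, -1.31, -0.42 and -1.31, and in D3 mice 16 to 20 it was -1.04, -1.21, -2.48, -1.56 and -1.88. All D2 and all D3 lungs lay below the lowest D0 lung, though the highest D2 lung was only 0.02 below it. The D1 lungs were spread widely, since mice 6 and 8 were within the D0 range and mouse 7 was as low as D3. The fitted difference from D0 was -0.60 ± 0.29 (SE) at D1, -0.83 ± 0.31 (SE) at D2 and -1.56 ± 0.29 (SE) at D3, the last being a 2.94-fold lower ratio. At D3 the Cy5 signal differed by -1.60 (log2) and the reference by -0.04. Within the 4 slides with both groups, the D3 difference ran from -2.08 to -1.29. With median centring in place of loess it was -1.01, and the call was lost.

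Forestomach Spon2 was also lower at D3, without passing the test. The ratio was -1.25, -1.21, -1.10, -0.17 and -1.33 in D0 mice 1 to 5. In D1 mice 6 to 10 it was -1.34, -1.74, -0.57, -0.94 and -1.10, and in D2 it was -1.38, -0.91, -1.14 and -1.78. In D3 mice 16, 17 and 19 it was -1.41, -1.79 and -1.91, and the arrays of mouse 18 gave -1.15 and -1.86. Mouse 4 stood apart at D0. With mouse 18 averaged, the 4 D3 mice lay below every D0 mouse, as for 0.631% of 55618 probes in forestomach. Taken singly, the first array of mouse 18 lay above 3 of the 5 D0 mice, so D3 and D0 then overlapped. The difference from D0 was -0.13 ± 0.24 (SE) at D1, -0.29 ± 0.25 (SE) at D2 and -0.64 ± 0.25 (SE) at D3. The 95% confidence interval at D3 ran from -1.17 to -0.11 before any correction over probes, and the FDR P in limma was 1.00 at each dose. No probe of the array was called in forestomach, 0% at each dose, while 2402, 1737 and 1986 probes had an unadjusted limma P under 0.05 at D1, D2 and D3. With the arrays of mouse 18 as separate mice the D3 difference of Spon2 was -0.61. Without mouse 4 it was -0.43 ± 0.22 (SE), and the differences at D1 and D2 were 0.09 and -0.08. With median centring the D3 difference was 0.14, a change of sign. The 15199 probes well above background on every forestomach array then had a median D3 difference of 0.71, and relative to this median Spon2 differed by -0.57.

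**Figure D2:**
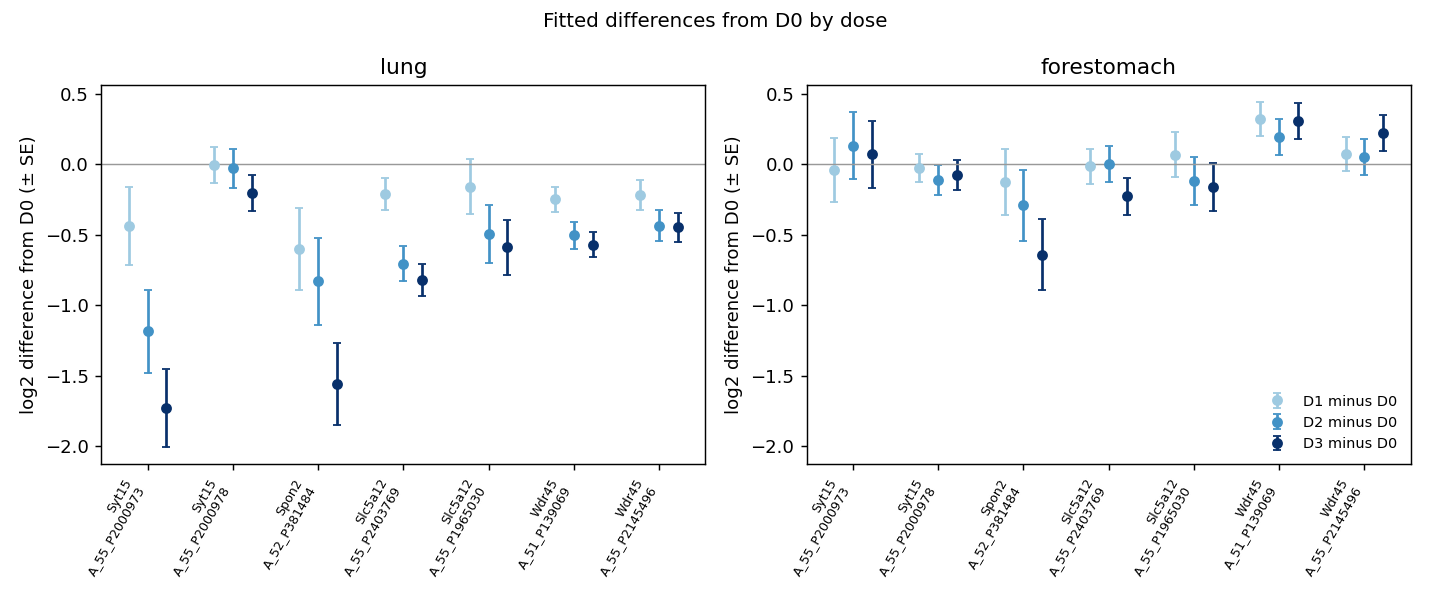
Fitted log2 difference from D0 with its standard error for each probe at D1, D2 and D3, in lung (left) and forestomach (right). Lung differences at D3 ran from -1.73 (Syt15 A_55_P2000973) to -0.20 (Syt15 A_55_P2000978), and forestomach differences from -0.64 (Spon2) to 0.31 (Wdr45 A_51_P139069).

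Both Slc5a12 probes, A_55_P2403769 and A_55_P1965030 (NM_001003915), were dim. In lung each was well above background in Cy5 on 10 of 19 arrays, and the reference was so on none. For A_55_P2403769 the arrays well above background were 4 of 5 at D0, 5 of 5 at D1, 0 of 4 at D2 and 1 of 5 at D3. The lung ratio of this probe was 1.07, 1.39, 0.72, 0.86 and 1.02 in D0 mice 1 to 5. The D1 lungs of mice 6 to 10 had 1.04, 0.69, 0.56, 0.77 and 0.96. In D2 mice 11, 12, 13 and 15 it was 0.31, 0.47, 0.12 and 0.33, and in D3 mice 16 to 20 it was 0.23, 0.40, 0.20, 0.00 and 0.14. D0 and D1 overlapped, and all D2 and D3 lungs lay below them. The fitted difference was -0.21 ± 0.12 (SE) at D1, -0.70 ± 0.12 (SE) at D2 and -0.82 ± 0.12 (SE) at D3.

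For Slc5a12 the ratio and the signal did not give the same size. From D0 to D3 the lung signal of A_55_P2403769 changed by -0.55 (log2), while the reference signal, which was not above background, changed by 0.27. The log2 signal of this probe averaged 6.49 at D0 and 6.00 at D2, where no array was well above background. Each D2 signal was raised to the dimmest signal well above background on its array, unless already higher. The D2 mean was then 6.07, and the D0 mean was 1.34-fold higher. This fold is an approximate lower bound, since signals over that floor were not always well above background. Within the 4 slides with both groups, the D3 difference of the ratio ran from -0.99 to -0.53. The size changed with the processing: the D3 difference was -0.59 with normexp correction and -3.02 with the Feature Extraction log ratio, which differs in both background subtraction and dye normalization.

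The other Slc5a12 probe, A_55_P1965030, moved in the same direction with more spread. Its lung ratios had a mean of 0.88 ± 0.47 (SD, n = 5) at D0, 0.72 ± 0.30 (SD, n = 5) at D1, 0.38 ± 0.28 (SD, n = 4) at D2 and 0.29 ± 0.30 (SD, n = 5) at D3. The ranges of D0, from 0.34 to 1.41, and D3, from -0.03 to 0.58, overlapped. The difference at D3 was -0.59 ± 0.20 (SE), which passed the fold threshold but was not called. Within slides it lay between -0.98 and 0.13, and 3 of 4 slides had a lower ratio at D3.

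Slc5a12 was at background in forestomach. A_55_P2403769 was well above background on none of the 19 arrays and A_55_P1965030 on 1, that of D1 mouse 6. That mouse had ratios of 0.60 and 0.87, while the other forestomach mice lay between -0.31 and 0.24 for the first probe and between -0.26 and 0.29 for the second. With the forestomach D0 signals raised to the dimmest well-above signal in the same way, the lung mean at D0 was 1.37-fold (A_55_P2403769) and 1.47-fold (A_55_P1965030) higher. These folds are again approximate lower bounds, and no dose response can be given for forestomach.

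**Figure D3:**
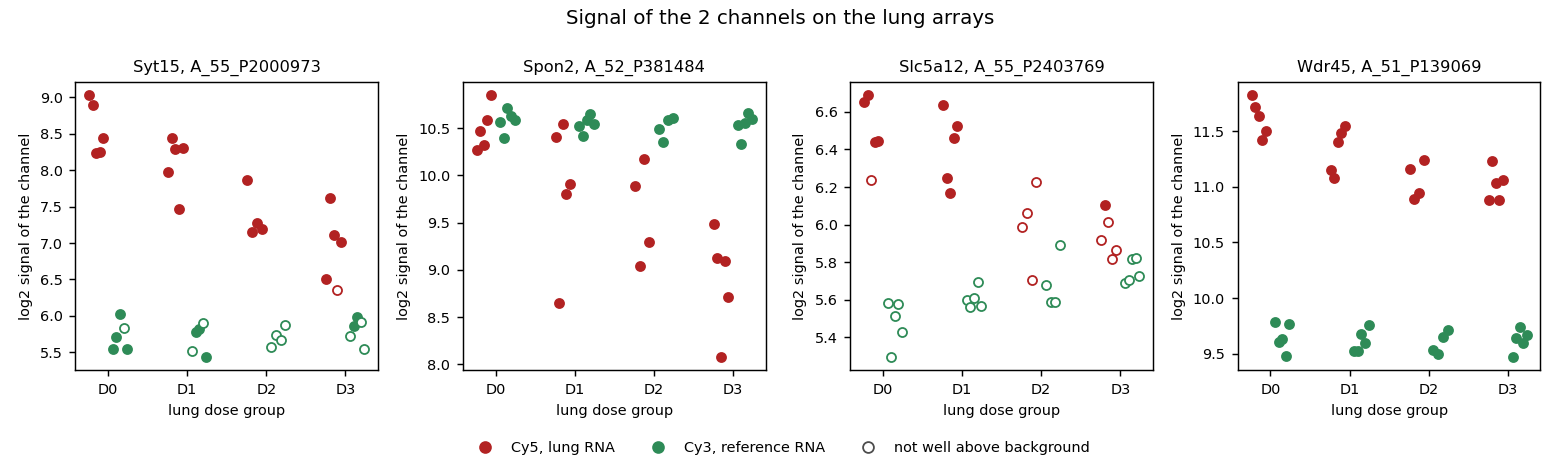
Log2 signal of each lung array in the Cy5 channel (lung RNA, red) and the Cy3 channel (reference RNA, green) by dose group, after loess and between-array scaling of the average intensity, for the leading probe of each gene. Open circles were not well above background; Slc5a12 A_55_P2403769 has 1 filled Cy5 circle of 5 at D3, and Spon2 and Wdr45 are filled throughout.

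Both Wdr45 probes, A_51_P139069 and A_55_P2145496 (NM_172372), were well above background in both channels on all 38 arrays. In lung they had the smallest spread between mice of the member probes. The lung ratio of A_51_P139069 was 2.04, 2.11, 2.00, 1.94 and 1.73 in D0 mice 1 to 5. In D1 mice 6 to 10 it was 1.63, 1.55, 1.73, 1.89 and 1.79. In D2 mice 11, 12, 13 and 15 it was 1.63, 1.39, 1.29 and 1.53, and in D3 mice 16 to 20 it was 1.41, 1.59, 1.30, 1.28 and 1.40. All D2 and D3 lungs lay below the lowest D0 lung. The mean was 1.97 ± 0.14 (SD, n = 5) at D0 and 1.40 ± 0.12 (SD, n = 5) at D3. The fitted differences were -0.25, -0.50 and -0.57, each ± 0.09 (SE), at D1, D2 and D3.

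The second Wdr45 probe gave lung differences of -0.22 ± 0.10 (SE) at D1, -0.44 ± 0.11 (SE) at D2 and -0.45 ± 0.10 (SE) at D3. Its D0 lungs ran from 1.57 to 1.90 and its D3 lungs from 1.09 to 1.54. Neither Wdr45 probe was called, because the D3 ratio was 1.48-fold and 1.36-fold lower, just under and well under the fold threshold of 1.5. The nearest member probe on the other side of that fold was Slc5a12 A_55_P1965030, at a difference of -0.59. Within the 4 slides with both groups, D3 was lower in each slide for both probes, from -0.71 to -0.49 and from -0.63 to -0.35. With median centring the lung differences of Wdr45 at D3 were -0.09 and 0.05. In that setting the 20766 probes well above background on every lung array had a median D3 difference of 0.35, against 0.006 with loess. Relative to the median of 0.35 the Wdr45 differences were -0.44 and -0.31.

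In forestomach the Wdr45 means were higher, not lower, in the DBahA groups, without passing the test. A_51_P139069 had 0.21, 0.27, 0.11, -0.38 and 0.29 in D0 mice 1 to 5. In D1 mice 6 to 10 it had 0.60, 0.46, 0.23, 0.60 and 0.24, and in D2 it had 0.40, 0.28, 0.13 and 0.36. In D3 mice 16, 17 and 19 it had 0.38, 0.54 and 0.31, with 0.27 and 0.53 on the arrays of mouse 18. With mouse 18 averaged, the 4 D3 mice lay above all D0 mice, as for 0.498% of 55618 probes. Its first array alone lay below 2 of the 5 D0 mice, so with single arrays the groups overlapped. The fitted difference was 0.32 ± 0.12 (SE) at D1, 0.19 ± 0.13 (SE) at D2 and 0.31 ± 0.13 (SE) at D3, with FDR P of 1.00 in limma at each dose. The 95% confidence interval at D3, uncorrected, ran from 0.04 to 0.57. The other Wdr45 probe differed by 0.07 ± 0.12, 0.05 ± 0.13 and 0.22 ± 0.13 (SE), again with FDR P of 1.00 in limma. Without D0 mouse 4, whose ratio was the lowest for both probes, the D3 differences were 0.19 ± 0.10 and 0.10 ± 0.09 (SE). The first probe then differed by 0.20 at D1 and 0.07 at D2, and the other probe turned negative, at -0.06 and -0.08. With the arrays of mouse 18 as separate mice the D3 differences were 0.31 and 0.22.

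Lung and forestomach were compared as levels of the same probe. At D0 the lung mean exceeded the forestomach mean by 2.00 for Syt15 A_55_P2000973, by 1.86 and 1.62 for the Wdr45 probes and by 0.93 for Spon2, all on the log2 scale. The D0 mice of both tissues did not overlap for Syt15 A_55_P2000973 and Wdr45, and they overlapped for Spon2, for which D0 mouse 4 had -0.17 in forestomach. At D3 the lung excess was 0.20 for Syt15 and 0.02 for Spon2, and both tissues overlapped. Wdr45 still had an excess of 0.99 and 0.95 at D3 with no overlap. The response at D3 in lung minus that in forestomach was -1.80 ± 0.39 (SE) for Syt15 A_55_P2000973, -0.91 ± 0.41 (SE) for Spon2, and -0.88 ± 0.15 and -0.67 ± 0.16 (SE) for Wdr45. These differences hold the lung values that chose the genes and are given with no test. With the mouse as a fixed block, which kept only mice with both tissues and so left out the lung of D3 mouse 20, they were -1.89, -0.85, -0.88 and -0.69.

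Agreement between the probes of 1 gene was examined mouse by mouse in 6 relations, 3 genes in 2 tissues. For Wdr45 the probes ranked the mice alike: over the 19 lungs Pearson's r was 0.914 and Spearman's rho 0.940, given with no test as both share the dose trend that chose the gene. After subtraction of the dose group means the lung values were r = 0.778 and rho = 0.854, with permutation P of 1.1e-04 and 1e-05, the latter the smallest that 100000 resamples can give, and adjusted P of 6.6e-04 and 6e-05 over the 6 relations tested, lung as deviations and forestomach as log2 ratios. Without the 2 mice farthest from the median the r was 0.810. The permutations took the lung deviations as exchangeable, with no allowance for the subtracted group means or for slides. The lung permutation P values of all 3 genes can therefore be too small. In the 18 forestomachs r was 0.837 and rho 0.690 (permutation P = 2.7e-04 and 0.00209, adjusted 8.1e-04 and 0.00418), and r was 0.531 without mice 4 and 6. The probes differed by a mean of 0.17 ± 0.11 (SD) in lung.

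The Slc5a12 probes tracked each other in lung, and in forestomach the relation rested on few mice. Over the 19 lungs r was 0.797 and rho 0.784, again with no test, and as deviations from the dose group means r was 0.699 and rho 0.747 (permutation P = 9.1e-04 and 3.5e-04, adjusted 0.00182 and 0.00105), with r = 0.635 without mice 2 and 3. In forestomach r was 0.626 and rho 0.195 (permutation P = 0.0221 and 0.437, adjusted 0.0331 and 0.437), where both probes were at background on nearly all arrays. Without mice 6 and 17 that r was 0.171, and it no longer held, mouse 6 being the one with high ratios on both probes.

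The Syt15 probes, on different transcripts, had r = 0.540 and rho = 0.609 in lung with no test. As deviations from the dose group means r was 0.497 and rho 0.479 (permutation P = 0.0316 and 0.0391, adjusted 0.0379 and 0.0587), with r = 0.632 without mice 9 and 19. As these P values can be too small, the agreement of the Syt15 probes in lung is not settled. In forestomach the values were r = -0.357 and rho = -0.401 (permutation P = 0.149 and 0.099, adjusted 0.149 and 0.119), and r was -0.299 without mice 2 and 11. A_55_P2000978 was at background on nearly all arrays, and how much of its variation reflects the transcript was not tested.

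**Figure D4:**
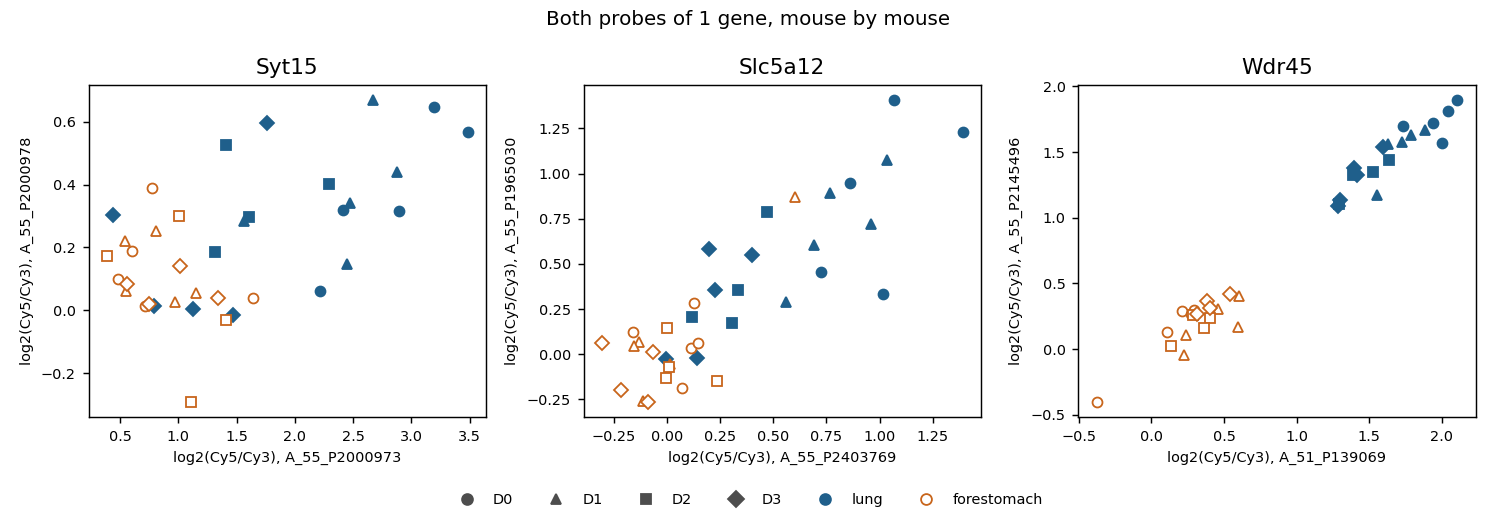
Log2(Cy5/Cy3) of the second probe (y axis) against the leading probe (x axis) of Syt15, Slc5a12 and Wdr45, 1 point per mouse, with dose groups by shape, lung filled and forestomach open. Wdr45 lies along a line in both tissues (r = 0.914 and 0.837), and the Slc5a12 forestomach point at 0.60 and 0.87 is D1 mouse 6.

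The genes whose lung pattern was most like that of each leading probe were taken by Pearson's r over the 19 lungs, among 17552 probes with a symbol that were well above background on at least 50% of the lung arrays. They are a description: the highest of many correlations have no P, and all the points share the dose series. For Syt15 they were Rnf19b, an E3 ubiquitin ligase, with r = 0.921, then the class 3 semaphorin gene Sema3g (0.881), Gprin3 (0.873), the ephrin gene Efna1 (0.873) and the protocadherin gene Pcdhac2 (0.872). Their correlations as deviations from the dose group means were 0.701 to 0.849, and over the 18 forestomachs 0.03 to 0.60. Of these 5 genes, Efna1 (-0.60) and Pcdhac2 (-0.88) were called in lung at D3, and Rnf19b, with r the highest, differed by -0.31 and was not called.

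For Spon2 the most alike were the acyl-CoA thioesterase gene Acot1 (r = 0.860), Dtx4 (0.843), the spermine synthase gene Sms (0.834), Eif4g3 (0.833) and the peroxisomal thiolase gene Acaa1b (0.832). Acot1 was called in lung at D3 (-0.87) and the other 4 were not. As deviations from the dose group means the lung correlations of these 5 genes with Spon2 were 0.584 to 0.797, and in forestomach the correlations lay between -0.18 and 0.11. For Slc5a12 they were the phosphodiesterase gene Pde8b (0.90), Swt1 (0.838), Pcdhac2 (0.834), Esm1 (0.819) and Safb2 (0.817). For Wdr45 they were Pde8b (0.881), the ephrin gene Efnb2 (0.862), the water channel gene Aqp1 (0.861), Lyl1 (0.858) and Syne2 (0.833). The lists of Slc5a12 and Wdr45 shared Pde8b, and those of Syt15 and Slc5a12 shared Pcdhac2. In forestomach the correlations were -0.56 to 0.17 for the Wdr45 list, which includes Pde8b at -0.56. For the Slc5a12 list they were -0.71 to 0.11, with a leading probe that was well above background on none of the 19 forestomach arrays.

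Relatives of the 4 genes were examined in 4 lists. Calls over all probes were at most 0.639% in lung and 0% in forestomach at any dose. Lists of this size would hold few calls or none at those shares, so nothing is read from their counts. Of 16 other synaptotagmins, 15 were on the array and 5 were well above background on at least 50% of the lung arrays, and 0 were called in lung or forestomach at any dose. The median lung difference of the 15 at D3 was -0.03, against 0.00 over all probes. Among the brighter ones, Syt13 differed by -0.56 ± 0.26 (SE), Syt11 by 0.17 ± 0.14 (SE) and Syt3 by 0.14 ± 0.10 (SE) in lung at D3, with limma FDR P of 0.427, 0.737 and 0.673.

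Of the 11 spondin relatives and other thrombospondin repeat genes, 1 was called in lung at D3 and 0 in forestomach. Cfp (properdin), a complement regulator with thrombospondin repeats, rose by 0.60 ± 0.14 (SE), with a limma FDR P of 0.0368. The median lung difference of the 11 genes was 0.02. Spon1, the F-spondin gene and closest in name to Spon2, differed by 0.57 ± 0.24 (SE), Thbs1 (thrombospondin) by -0.54 ± 0.23 (SE) and Rspo1, a Wnt signal enhancer, by -0.45 ± 0.34 (SE), with FDR P of 0.345, 0.349 and 0.691 in limma.

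All 12 other Slc5 transporters listed were on the array, 4 of them well above background on at least 50% of the lung arrays, and 0 were called in either tissue at any dose. Their median lung difference at D3 was -0.04. The myo-inositol transporter gene Slc5a3 differed by -0.44 ± 0.16 (SE), the multivitamin transporter gene Slc5a6 by 0.26 ± 0.11 (SE) and Slc5a9 by -0.09 ± 0.16 (SE), with limma FDR P of 0.249, 0.338 and 0.903.

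All 19 autophagy genes were well above background on at least 50% of the lung arrays, and 0 were called in either tissue at any dose. The median lung difference at D3 was 0.07, against 0.006 over all probes passing that brightness filter, with 14 positive and 5 negative. The split over all probes was not counted. Atg3, the enzyme that conjugates the LC3 family to lipid, differed by 0.47 ± 0.11 (SE) and Wipi1, a paralog of Wdr45, by 0.39 ± 0.09 (SE), with limma FDR P of 0.0410 and 0.0261 but folds under 1.5. Gabarapl2, an LC3 relative, differed by 0.20 ± 0.09 (SE), with an FDR P of 0.403 in limma.

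With the heart muscle score of each array as a covariate, an alternative chosen after seeing the data, the lung differences at D3 were -1.73 for Syt15 A_55_P2000973, -1.54 for Spon2, -0.82 for Slc5a12 A_55_P2403769 and -0.59 for Wdr45 A_51_P139069. With the glandular stomach score as a covariate in forestomach, also chosen after seeing the data, the D3 differences were -0.64 for Spon2 and 0.33 for Wdr45 A_51_P139069.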

How the data were processed

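Gene expression was measured on 38 dual-colour Agilent arrays, 19 per tissue. The deposited scanner files hold the median intensity of 62976 spots per array on a linear scale, which the authors extracted with Feature Extraction version 10.7.3.1 and did not background-subtract. They also hold a log10 ratio that, per the file headers, was computed after background subtraction and dye normalization, and the authors deposited a table of log2 ratios. Both served as alternatives. The deposited table did not state its scale or centring. Its columns ran against the ratios computed here with slopes from 0.990 to 0.998, and their medians lay between -0.0415 and -0.0195.

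Median intensities were normalized by loess within each array with control spots at weight 0, following the study's methods. Spots of 1 probe were averaged without those marked as outliers, which left 372 probe values empty. Symbols came from RefSeq (GRCm38.p6) by accession. The array files use mm9, so their coordinates are not given. For each tissue limma 3.58.1 (R 4.3.3) estimated 1 mean per dose group, and P values were adjusted by Benjamini-Hochberg over all probes. The script was tested on simulated data. Nothing states whether the 2 arrays of forestomach mouse 18 came from 1 animal, and no forestomach of mouse 20 was used here.

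The same mouse number in lung and forestomach marks 1 animal per the labels. Over 18 such pairs, deviations from the group means correlated with r from 0.075 to 0.249 (median 0.186), and the consensus correlation was 0.13. Alternatives changed the centring, background correction, filter on dim probes, blocks for slide and scan day, groups in the fit, mice and the averaging of mouse 18. Genes named for likeness were the 5 with the highest r for each leading probe, and those named from the family lists were the called genes and the 3 largest lung differences among brighter probes. The member genes and all gene lists were chosen with earlier results of these data known. Probe correlations used 100000 permutations, two-sided, in scipy 1.17.1. The number of arrays limits the precision.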

Additional observations from a re-analysis of the deposited data

Results flagged for a closer look

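Of 56 sets of mice (7 probes in 4 dose groups of 2 tissues), 8 held a mouse far from the rest of its group by Dixon's test at the 95% level, which chance alone gives for about 1 set in 20. Forestomach D0 mouse 4 stood apart for Spon2 (-0.17, the next mouse at -1.10) and for both Wdr45 probes (-0.38 against 0.11 and -0.40 against 0.13). Forestomach D0 mouse 2 stood apart for Syt15 A_55_P2000973 (1.64, the next at 0.78). For Slc5a12 A_55_P2403769, which was at background in forestomach, D0 mouse 5 (-0.16), D1 mouse 6 (0.60) and D2 mouse 15 (0.24) stood apart. In lung the only such value was that of D1 mouse 7 for Wdr45 A_55_P2145496 (1.18, the next at 1.56). The glandular stomach score of forestomach mouse 4 was 1.69, where the D0 mice, itself included, ran from -3.27 to 2.73. Its scores were the highest of D0 for smooth muscle (0.30) and B cells (0.23). The part of these scores in the values was not tested.

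For Wdr45 every mouse of a DBahA group lay below the D0 mean in lung and above it in forestomach. This held for A_51_P139069 at D1 (lung minus forestomach response -0.57), D2 (-0.70) and D3 (-0.88) and for A_55_P2145496 at D3 (-0.67). The forestomach D0 mean includes mouse 4, which stood apart for both probes. For A_51_P139069 the lowest D2 forestomach (0.13) lay below the D0 median (0.21). How many of all probes had this pattern was not counted. The difference between the tissues was not tested, as the lung values chose the gene.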

How the results depend on the processing

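In lung, leaving out any 1 mouse left each member difference within 1 SD between mice of its value. Syt15 A_55_P2000973, Spon2 and Slc5a12 A_55_P2403769 were called at D3 without each of the 19 mice. The genes were chosen on these same lung arrays, so nothing is read from calls that remained. Median centring without loess called 0, 5 and 16 probes at D1, D2 and D3, among them 1 member probe at D3 (Slc5a12 A_55_P2403769). Syt15 and Spon2 were not called there, with -1.15 and -1.01. The Feature Extraction log ratio called 160 and 225 probes at D1 and D2, and the slide block 130 and 242. At D2 0 member probes were called with the Feature Extraction log ratio, with normexp or with D0 and D2 alone in the fit, and 2 were called with the slide or the scan day as a block. For the dim Slc5a12 probes the Feature Extraction log ratio gave -3.02 and -2.29 at D3, and for Syt15 A_55_P2000978 it gave -1.94. Syt15 A_55_P2000973 was then -1.15 and not called. Wdr45 A_51_P139069 was called at D3 in 3 of 9 other settings and without each of 2 mice. Leaving out 1 mouse, lung D2 calls ran from 93 (without D2 mouse 12) to 203, and member probes called at D2 from 1 to 2 (without D2 mouse 11).

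In forestomach, 0 member probes were called in any setting. Over all probes, D0 and D3 alone in the fit called 3 at D3, both arrays of mouse 18 as separate mice called 1 at D3, and leaving out 1 mouse called 0 to 1 at D2 and at D3 (1 without D1 mouse 7, and at D3 without D2 mouse 13). Several differences changed sign, among them that of Spon2 at D3. With median centring Spon2 was 0.13, 0.40 and 0.14 at D1 to D3, Syt15 A_55_P2000973 -0.060 and -0.073 at D2 and D3, and Slc5a12 A_55_P2403769 -0.29 at D2. The median difference of the 15199 brighter probes was then 0.23, 0.63 and 0.71 at D1 to D3, against -0.006, 0.010 and 0.016 with loess. Relative to the median of 0.71 Spon2 was -0.57 at D3. With the slide as a block, Slc5a12 A_55_P1965030 was -0.0087 at D1, Slc5a12 A_55_P2403769 -0.10 at D2, Syt15 A_55_P2000973 -0.016 and -0.075 at D2 and D3, and Syt15 A_55_P2000978 0.011 at D1. With the scan day, Syt15 A_55_P2000978 was 0.017 at D1, Slc5a12 A_55_P2403769 -0.068 at D2 and Syt15 A_55_P2000973 -0.054 at D3. Slc5a12 A_55_P2403769 was 0.60 (Feature Extraction) and 0.054 (normexp) at D1 and -0.0049 at D2 with the glandular score, and Syt15 A_55_P2000973 was 0.0027 at D1 with normexp. The cause was not tested.

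Leaving out 1 mouse of the forestomach changed signs in these ranges. At D1 they were -0.12 to 0.17 and -0.15 to 0.035 for Slc5a12 A_55_P1965030 and A_55_P2403769, -0.27 to 0.085 for Spon2, -0.13 to 0.16 and -0.057 to 0.036 for Syt15 A_55_P2000973 and A_55_P2000978, and -0.057 to 0.13 for Wdr45 A_55_P2145496. At D2 they were -0.056 to 0.024 for Slc5a12 A_55_P2403769, -0.012 to 0.33 and -0.20 to 0.00059 for the Syt15 probes and -0.076 to 0.10 for Wdr45 A_55_P2145496, whose lowest values at D1 and D2 were those without D0 mouse 4. At D3 it was -0.069 to 0.27 for Syt15 A_55_P2000973.

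With the mouse as a replicate block (pairing of lung and forestomach), the lung minus forestomach response at D3 was -1.89 for Syt15 A_55_P2000973 with a fixed block and -1.81 with a random block. The fixed block left out the lung of D3 mouse 20, which had no paired forestomach. With either block, this probe and all other member probes moved by less than the spread between mice. The filter on dim probes dropped Slc5a12 in forestomach and Syt15 A_55_P2000978 in both tissues. Dim signal limits Slc5a12 and Syt15 A_55_P2000978. As deviations from the dose group means, the lung correlations between probes were 0.497 (Syt15), 0.699 (Slc5a12) and 0.778 (Wdr45).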
